A study of Mus musculus with 14 samples.

Results

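Cells of the mouse mammary epithelial line SCp2 were kept for 3 days with MMP-3 after plating at 50K or at 250K cells per 35 mm dish, and the comparison described here asks how plating density altered gene expression while the protease was present. It uses 4 of the 14 arrays of the series: the 2 labelled MMP3 250K against the 2 labelled MMP3 50K, with 1 dish of each density in experiment A and 1 in experiment B. Cells grew in DMEM with 2% FCS, and 200 ng of total RNA from each dish went onto 1 Affymetrix mouse expression array. All 4 dishes were treated with MMP-3, for which the labels give neither dose nor source. Control dishes without MMP-3 at the same densities (2 at 50K and 2 at 250K) are set beside the comparison near the end. SCp2 is a single cell line, so every value below is from that line. The labels do not tell whether the cells of A and B came from separate stocks. With 1 dish of each density in an experiment, the only spread within a gene is that between 2 differences. The p-values and SEs rest on that spread, which limma moderates toward one shared by all genes.

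MMP-3, or stromelysin-1, is a secreted metalloproteinase that cuts basement membrane proteins and the extracellular part of E-cadherin, and it has long been used on mammary epithelial lines to loosen cell contacts. Crowding acts on epithelial cells through those contacts. In sparse, spread cells the coactivators YAP and TAZ enter the nucleus and switch on genes with TEAD factors, actin tension drives SRF targets, and growth factor signalling keeps E2F factors active. In dense layers YAP leaves the nucleus, RB family proteins hold E2F factors back, and cells leave the cycle, a state in which FoxO factors switch on genes of growth arrest.

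The promoters of 5 genes from the lists discussed below are shown because their genes were at least 2-fold lower at 250K in both experiments and because the stretch of 250 bases before the start of each holds the core letters of a factor named above. They are RefSeq sequences of build GRCm38.p6, printed 5′ to 3′ in the direction of the gene, with the motif in capitals. Ccn1 lies at chr3:145649986-145650235 on the minus strand, Ankrd1 at chr19:36119845-36120094 on the minus strand and Vgll3 at chr16:65814939-65815188 on the plus strand. For these the capitals mark CATTCC, the core of the TEAD motif, or its reverse complement GGAATG. Gins3 lies at chr8:95633309-95633558 and Rrm1 at chr7:102441445-102441694, both on the plus strand, and there the capitals mark TTCCCGC, an E2F core, or its reverse complement GCGGGAA.
Ccn1: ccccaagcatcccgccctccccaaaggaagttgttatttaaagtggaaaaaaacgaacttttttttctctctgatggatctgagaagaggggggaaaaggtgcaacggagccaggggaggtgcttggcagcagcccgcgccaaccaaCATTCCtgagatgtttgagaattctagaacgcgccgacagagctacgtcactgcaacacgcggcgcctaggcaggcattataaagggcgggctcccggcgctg
Ankrd1: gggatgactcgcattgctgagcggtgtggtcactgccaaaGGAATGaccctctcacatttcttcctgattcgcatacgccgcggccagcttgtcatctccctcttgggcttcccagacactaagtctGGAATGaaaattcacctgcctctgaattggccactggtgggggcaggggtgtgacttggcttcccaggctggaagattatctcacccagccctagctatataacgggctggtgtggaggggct
Vgll3: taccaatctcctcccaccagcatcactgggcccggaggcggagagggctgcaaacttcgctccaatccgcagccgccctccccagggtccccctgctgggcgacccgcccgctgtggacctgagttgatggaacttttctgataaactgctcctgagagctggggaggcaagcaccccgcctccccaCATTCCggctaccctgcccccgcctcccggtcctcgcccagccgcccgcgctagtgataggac
Gins3: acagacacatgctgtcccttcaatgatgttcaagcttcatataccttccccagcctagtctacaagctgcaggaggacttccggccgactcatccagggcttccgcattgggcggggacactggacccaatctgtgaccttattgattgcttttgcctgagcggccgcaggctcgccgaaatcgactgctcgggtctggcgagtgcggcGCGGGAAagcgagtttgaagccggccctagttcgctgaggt
Rrm1: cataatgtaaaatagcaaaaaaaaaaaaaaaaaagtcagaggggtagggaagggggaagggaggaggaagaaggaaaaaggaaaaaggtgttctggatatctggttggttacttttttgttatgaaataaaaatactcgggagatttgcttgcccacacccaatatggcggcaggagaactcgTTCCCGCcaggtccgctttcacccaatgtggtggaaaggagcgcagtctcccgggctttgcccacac

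The TEAD letters begin 103 bases before the start in Ccn1, 210 and 123 bases before it in Ankrd1, and 63 in Vgll3. The E2F letters begin 41 bases before the start in Gins3 and 67 in Rrm1. Both strands were searched for each motif. CATTCC was found in 12.6% of all 27025 promoters of that length, in 10.6% of those of tested genes and in 9 of the 19 promoters that could be matched to the list of YAP and TEAD targets (47.4%). TTCCCGC was found in 3.84% of all promoters, in 6.97% of those of tested genes and in 9 of 31 of the DNA replication list (29.0%). Of the genes at least 2-fold lower at 250K in both experiments 67 had a promoter in the table, with CATTCC in 6 (8.96%) and TTCCCGC in 10 (14.9%). Of the 75 higher ones, 8 (10.7%) and 2 (2.67%) held them. A match of letters describes the sequence and does not show that a factor is bound there.

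The values are relative log2 expression: each probe set was centred by the authors on its median over the 14 arrays, so a value gives the distance from that median and no absolute level. A difference of 1 is a 2-fold change. The presence of a marker, and with it the labelled cell type, can therefore not be read from these values. In all, 11833 genes were tested. On the 4 arrays the values of the tested genes had SDs between 0.34 and 0.60. Across those genes r was 0.679 between the 2 arrays at 250K and 0.495 between the 2 at 50K. The array at 250K of A and that at 50K of B correlated with r = 0.59, and the 2 arrays of 1 experiment with r = 0.504 in A and 0.48 in B. Genes are not independent replicates, so these values describe the arrays. For actin, the 3′ minus the 5′ control probe set was higher at 250K in both experiments, at 0.09 against -0.14 in A and 0.19 against -0.12 in B. That of Gapdh differed by little, at 0.17 against 0.12 and 0.02 against 0.06. Each probe set is centred on its own median. These signs of RNA quality are thus shifts relative to the series and no 3′ to 5′ ratios. The 18S control was also higher at 250K, at 0.73 against 0.64 in A and -0.04 against -0.37 in B. The part of RNA quality in the results below was not tested.

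Labels of experiment B are used as deposited and are open to doubt. Ifit1, an antiviral gene induced by interferon, was at 2.83, 3.96 and 4.21 on the MMP3 arrays of A at 50K, 100K and 250K. In B it was at 4.53 and 5.15 on the arrays labelled MMP3 50K and 250K, the pair compared here, but at -2.83 and -2.97 on those labelled MMP3 25K and 100K. The MMP3 100K array of B also stood apart in spread, with an SD of 1.3 over the tested genes against 0.34 to 0.60 on the 13 others. The 4 arrays compared were alike in Ifit1. On the control arrays of B, however, it was at 3.71 and 4.26 at 50K and 250K, and at -2.93 at both 25K and 100K. In B this gene thus separated 50K and 250K from 25K and 100K under either agent label. Its likeness on the 4 arrays therefore settles neither the agent nor the density of the B pair. Results are given for A and B side by side so that those of A can be read alone.

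The differences between 250K and 50K had an SD of 0.412 in A and 0.53 in B, they correlated across genes with r = 0.605, and 64.9% of genes had the same sign in both (95% Wilson interval 64.0 to 65.7, counting error only). Without the filter on genes of low variation the same-sign share was 47.5% of 18193 genes. At 250K, 4148 genes were higher in both experiments (35.1% of those tested) and 3530 lower in both (29.8%), while 4155 had opposite signs (35.1%). At least 2-fold in A were 349 genes (2.95%) and 813 were at least 2-fold in B (6.87%). In the same direction in both, 176 genes differed by at least 2-fold (1.49%), 90 of them higher at 250K (0.761%) and 86 lower (0.727%). Only 8 genes were at least 2-fold in both in opposite directions (0.0676%), among them the tight junction gene Cldn4 and the antiviral genes Cmpk2 and Rsad2.

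With limma and experiment as a block, no gene passed an adjusted p under 0.05 (0.0% of those tested), and the smallest adjusted p was 0.184. At an unadjusted p under 0.05 there were 2576 genes (21.8%), 1379 higher (11.7%) and 1197 lower (10.1%). This count moved with the fit: it was 1445 without the block, 497 with all 14 arrays in the fit, and there 159 (without MMP3 250K of B) to 523 (without MMP3 250K of A) with 1 of the 4 arrays left out. The fit leaves 1 residual degree of freedom. To it limma adds a prior of 1.65 drawn from all genes, so an SE is not the spread of that gene alone. In simulated data with 200 changed genes, the same fit called 0% of the changes of 1 or 2 log2 units after adjustment. Before adjustment, 94% and 99% of them had a p under 0.05 with limma. In this fit an adjusted p above 0.05 is thus no evidence that a gene did not change. What follows therefore rests on the agreement of the 2 experiments. Counts of a gene list are to be read against the shares of all genes (35.1% higher and 29.8% lower in both), also where these are not repeated. For members at least 2-fold different in both these shares are 0.761% higher and 0.727% lower.

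**Figure D1:**
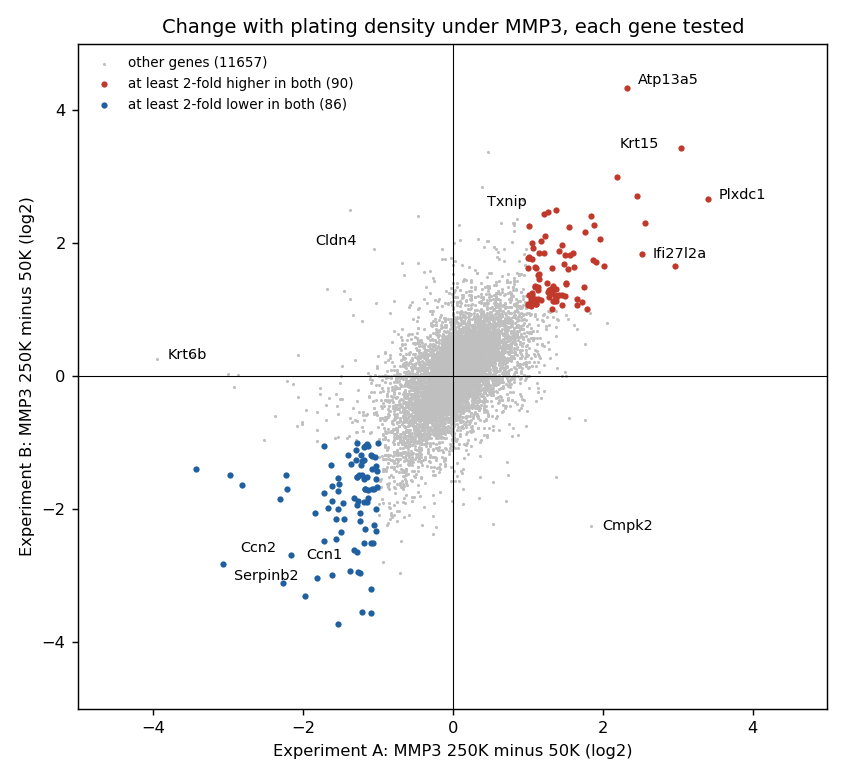
Each point is 1 of the 11833 tested genes, placed by its difference between MMP3 250K and MMP3 50K in experiment A (horizontal, log2) and in experiment B (vertical, log2). The cloud runs from lower left to upper right (r = 0.605), with the 90 genes at least 2-fold higher in both in red and the 86 lower in both in blue.

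Among the genes higher at 250K, the keratin gene Krt15, a marker of basal and progenitor epithelial cells, had the largest value for the smaller of its differences in A and B. Its relative log2 expression was -4.38 at 50K and -1.34 at 250K in A, and -1.45 at 50K and 1.99 at 250K in B. Both 250K arrays lay above both 50K arrays, though the 250K array of A exceeded the 50K array of B by little. The mean difference was 3.24 (SE 0.14), a 9.46-fold difference, with limma at adjusted p = 0.184. In the fit on all 14 arrays it was 1.30 without MMP3 250K of B, 1.54 without MMP3 50K of A, 4.95 without MMP3 50K of B and 5.18 without MMP3 250K of A. Of the 113 named genes, the difference of 61 moved by over 1.5 times in such fits. The transmembrane gene Plxdc1 went from -3.59 to -0.19 in A and from -1.17 to 1.5 in B, a mean difference of 3.04 (SE 0.24), or 1.56 over the mean of its probe sets. Nrep went from -3.50 to -1.04 and from -2.50 to 0.21.

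Some leading genes were near the median of the series on both 50K arrays and high on both 250K arrays. Atp13a5, a transport ATPase gene, was at -0.02 and 0.00 at 50K and at 2.30 (A) and 4.33 (B) at 250K. Wfdc3 was at -0.36 and 0.42 at 50K and at 1.61 and 2.49 at 250K. Cavin4, chosen after its values were seen, was at -0.02 on both 50K arrays and at 1.59 and 1.64 at 250K, and its value lay between -0.06 and 0.22 on the other 10 arrays. The pair at 250K was thus set apart from all others for this gene of caveolae.

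The other leading genes showed the same order within both experiments. The metalloreductase gene Steap4 was higher at 250K by 2.19 in A and 3.0 in B, the small GTPase gene Rab40b by 2.56 and 2.31, and the nuclear receptor Rora, which acts in the circadian clock, by 1.88 and 2.27. Rtl3, a gene derived from a retrotransposon, was at -4.15 and -3.07 at 50K and at -2.30 and -0.66 at 250K, and Tcp11l2 was higher by 1.76 and 2.17. Of the 24 leading genes (12 in each direction), 23 had no overlap between the 250K and the 50K arrays. Since they were chosen for their differences on these arrays, nothing is read from that count; over all genes the share was 24.0% with 250K above and 20.6% with 250K below. Over the mean of their probe sets Rab40b differed by 1.22 and Rora by 1.20. The exception to the lack of overlap was Ifi27l2a, an interferon-induced gene, which went from -0.92 to 1.6 in A and from 2.86 to 4.70 in B.

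Among the genes lower at 250K, Serpinb2 came first by the same measure. It encodes PAI-2, an inhibitor of plasminogen activators, and its relative log2 expression was 1.0 at 50K and -2.07 at 250K in A, and -1.58 and -4.40 in B. The 2 groups did not overlap, and the mean difference was -2.95 (SE 0.11, adjusted p = 0.184 with limma). Ccn2, a matricellular protein gene and a classical YAP target, was at 3.22 and 1.06 in A and at 1.89 and -0.79 in B, a mean difference of -2.42 (SE 0.18). Ddah1, for an enzyme that breaks down asymmetric dimethylarginine, was at 2.69 and 2.64 on the 50K arrays and at 0.41 and -0.47 on the 250K arrays.

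Papss2, for an enzyme that makes the sulfate donor PAPS, was at 4.15 and 1.71 at 50K and at 1.35 and 0.07 at 250K. Plscr2 was at 3.79 and 3.38 against 1.81 and 0.09. The kinase gene Prkd1 was lower at 250K by 1.82 in A and 3.04 in B, and Cald1, for the actin-binding protein caldesmon, by 2.31 and 1.84. Both had several probe sets, over whose mean the differences were -1.32 and -1.14. The imprinted gene Phlda2 was lower by 1.84 and 2.05, and Dck, the kinase of deoxycytidine salvage, by 1.67 and 1.98, or -1.14 over the mean of its probe sets.

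**Figure D2:**
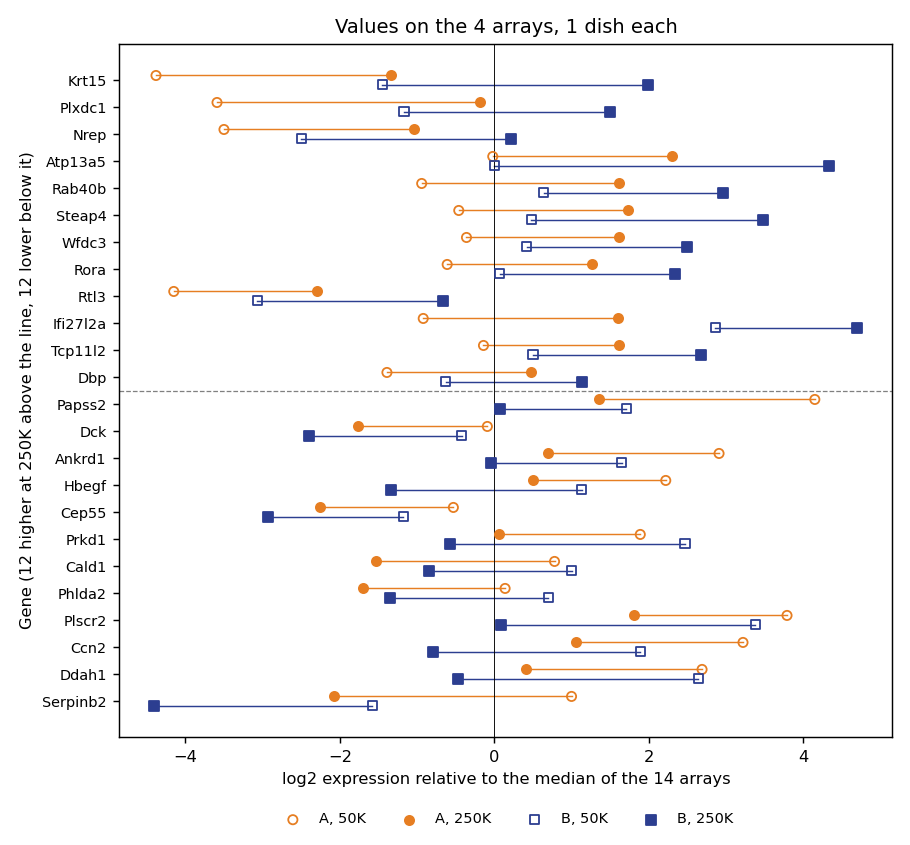
Relative log2 expression (horizontal) of the 12 genes leading in each direction on the 4 arrays, open symbols for 50K and filled for 250K, circles for A and squares for B, with a line joining the 2 dishes of an experiment. Every gene runs the same way in both experiments, and Ifi27l2a is the 1 gene whose groups overlap.

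Genes of DNA replication were lower at 250K without exception. Of the 38 tested members, 38 were lower in both experiments, where 29.8% of all genes were. Both 250K arrays lay below both 50K arrays in 37 of them, against 20.6% of all genes. An unadjusted p under 0.05 was reached by 33 of them in the lower direction, against 10.1% of all genes, and the median difference was -0.65 in A and -1.26 in B, where the medians of all genes were 0.00 and 0.02. Gins3, a subunit of the GINS complex that travels with the replicative helicase, was at 0.15 and -0.81 at 50K and at -1.39 and -2.33 at 250K. The groups did not overlap, and the mean difference was -1.53 (SE 0.08, adjusted p = 0.184 with limma), or -1.12 over the mean of its probe sets.

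The helicase loading genes followed. Mcm3 was at 0.61 and -0.34 at 50K and at -0.61 and -1.84 at 250K, a mean difference of -1.35 (-0.87 over the mean of its probe sets), so the 250K array of A lay just below the 50K array of B. Mcm5 was lower by 1.14 in A and 1.83 in B, and Mcm10 by 1.03 and 1.54. Of the tested members, 6 were at least 2-fold lower in both, against 0.727% of all genes. Among them were both large and small subunit genes of ribonucleotide reductase, the enzyme that makes deoxynucleotides. Rrm1 was lower by 1.08 and 1.20, and Rrm2 by 1.19 and 1.54. Rrm2 was at 0.13 and -0.52 at 50K and at -1.06 and -2.06 at 250K. The largest differences in B were those of the origin recognition gene Orc1 (-0.93 in A, -2.79 in B) and of Cdc45 (-0.86 and -2.21), both chosen after their values were seen. At the other end, Gins4 was lower by 0.30 and 0.33.

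Mitosis genes were lower as well, with smaller differences. All 35 tested members were lower in both experiments (29.8% of all genes), 31 of them without overlap between the groups (20.6% of all genes), and 22 had an unadjusted p under 0.05 (10.1% of all genes), yet none was at least 2-fold lower in both. The median was -0.53 in A and -1.06 in B. Ttk, a kinase of the spindle checkpoint, was at -0.26 and -0.41 at 50K and at -1.24 and -1.63 at 250K. Its groups did not overlap, and the mean difference was -1.10 (SE 0.11, adjusted p = 0.184 with limma).

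Incenp, of the chromosomal passenger complex, was lower by 0.85 in A and 1.69 in B, and Tpx2, a spindle assembly factor, by 0.81 and 1.36. Another probe set of each gave the opposite sign, and over the mean of their probe sets the differences were -0.79 and -0.46. Cep55, which acts in the final separation of daughter cells and is not in the list, was at -0.53 and -1.18 at 50K and at -2.26 and -2.93 at 250K. Over the mean of its probe sets it differed by -1.33. Mki67, the common proliferation marker, was at -0.17 and -0.20 against -0.49 and -0.86, a mean difference of -0.49 (SE 0.13). The mitotic kinase Aurka differed by no more than 0.05 in either experiment. With the 4 arrays normalized to 1 distribution again, 38 of 38 replication genes and 27 of 35 mitosis genes were lower in both.

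The regulators of the cycle did not move as 1 group: 14 of 25 tested were lower in both and 6 higher in both. Lower were the atypical E2F genes E2f7 (by 0.93 and 1.43) and E2f8 (by 0.79 and 1.37, with -0.54 over the mean of its probe sets) and the cyclin gene Ccne2, which drives entry into S phase (by 0.92 and 1.25). Ccnd1, for cyclin D1, was at -0.01 and 0.31 at 50K and at -0.19 and -0.16 at 250K, a mean difference of -0.33 (SE 0.12, adjusted p = 0.273 with limma). Higher was Cdkn1b, for the inhibitor p27, at -0.52 and -0.28 against -0.07 and 0.50, with a mean difference of 0.62 (SE 0.13). Rbl2, for the RB family protein p130 of resting cells, was also higher, by 0.62 and 0.67. The inhibitor gene Cdkn1a went in opposite directions, by -0.58 in A and 1.04 in B.

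Ribosome biogenesis, which supplies growing cells, was lower in 23 of 24 tested members and higher in both in none, against 29.8% and 35.1% of all genes, and 16 had an unadjusted p under 0.05, against 10.1%. The medians were close in the 2 experiments, -0.41 in A and -0.49 in B. Mybbp1a was at 0.01 and -0.12 at 50K and at -0.72 and -1.31 at 250K, and Dkc1, for dyskerin of the box H/ACA particles, at 0.05 and -0.24 against -0.59 and -1.17. Tsr1 was lower by 0.75 and 0.70. Neither Bop1 nor Nip7 and Rrp9 differed by more than 0.07 in either experiment.

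Targets of YAP and TEAD were mostly lower at 250K, 16 of 26 in both experiments against 29.8% of all genes, with 2 higher in both. At least 2-fold lower in both were 5 members, against 0.727% of all genes: Ccn2, Ccn1, Ankrd1, Dock5 and Vgll3. In the lower direction 10 members had an unadjusted p under 0.05 with limma, against 10.1% of all genes. Ccn1, a matricellular gene like Ccn2, was at 2.15 and 1.65 at 50K and at 0.87 and -0.98 at 250K. Ankrd1 was at 2.91 and 1.65 at 50K and at 0.70 and -0.04 at 250K. In both genes the groups did not overlap, and the mean differences were -1.96 (SE 0.43) and -1.95 (SE 0.18), each above an adjusted p of 0.05 with limma, at 0.193 and 0.184. With 1 array left out of the fit on all 14, Ccn1 was at -0.75 without MMP3 250K of B and at -3.16 without MMP3 250K of A. Ankrd1 was at -0.96 without MMP3 50K of A, at -1.26 without MMP3 250K of B and at -2.94 without MMP3 50K of B. For Ankrd1 the mean of its probe sets differed by -1.09.

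Vgll3, a cofactor of TEAD, was lower by 1.08 and 1.39, and the guanine exchange factor gene Dock5 by 1.06 and 2.23. Of these 5 genes, Ccn1, Ankrd1 and Vgll3 hold the TEAD letters printed above. Other targets differed by less: Amotl2, which feeds back on YAP, was lower by 0.97 and 0.65, while Crim1 was higher by 0.21 and 0.47 and Fjx1 went from -0.11 in A to 0.54 in B.

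The SRF and actin genes were lower in 23 of 28 members in both experiments, against 29.8% of all genes. The amounts were modest (median -0.41 in A and -0.32 in B), and none reached 2-fold in both. Fhl2, a LIM protein gene, was at 0.65 and 0.53 at 50K and at -0.31 and -1.02 at 250K. Msn, for moesin, which links actin to the membrane, was at 1.51 and 0.20 against -0.03 and -0.71, and Flna, for the actin crosslinker filamin A, was lower by 0.71 and 0.97. The actin genes Actb and Actg1 were lower by 0.15 and 0.14 in A and by 0.30 in B each. The early response gene Egr1 was the 1 member higher in both, by 0.60 and 1.29.

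Several ligands of the EGF receptor family were lower and 3 of its receptor genes were higher. Of 18 tested members of the pathway list, 11 were lower in both and 5 higher, against 29.8% and 35.1% of all genes. At least 2-fold lower in both were 3 members, against 0.727% of all genes: the ligands Hbegf, Ereg and Nrg1. Hbegf, a ligand shed from the cell surface by proteases, was at 2.22 and 1.13 at 50K and at 0.50 and -1.34 at 250K. Its mean difference was -2.10 (SE 0.24, adjusted p = 0.184 with limma), or -1.43 over the mean of its probe sets. Ereg, for epiregulin, was at 1.58 and 0.87 against 0.40 and -0.19, and Nrg1, for a ligand of ERBB3 and ERBB4, at -0.04 and -0.16 against -1.18 and -1.87. None of these groups overlapped.

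The pathway's transcriptional targets Etv4 and Etv5 were lower by 0.52 and 0.66 in A and by 1.42 and 1.89 in B, and Dusp6, a phosphatase that restrains ERK, by 0.58 and 0.99. The receptor genes Egfr, Erbb2 and Erbb3 were higher by 0.16, 0.44 and 0.78 in A and by 0.45, 0.47 and 0.65 in B. The ligand gene Tgfa was higher too, by 0.28 and 0.12.

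Among matrix proteases and their inhibitors 7 of 19 were lower in both and 5 higher, so no common direction appeared, and Plat, for the tissue plasminogen activator, was among the higher ones, by 0.46 and 0.61. Besides Serpinb2, the lower ones included Plaur. Plaur, the receptor of the urokinase activator, was at 1.38 and 0.99 at 50K and at 0.10 and -0.52 at 250K, a mean difference of -1.40 (SE 0.10). Plau, for urokinase itself, was lower by 0.63 and 0.62. The metalloprotease gene Adam12 was at 2.81 and 1.78 against 1.44 and -1.14, and Adamts1 was lower by 1.10 and 2.51. For Adam12 another probe set had the opposite sign, and the mean of its probe sets differed by -1.07. Expression of the endogenous Mmp3 gene differed by 0.00 and 0.03.

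NF-kappaB targets and chemokines were lower in 13 of 20 members in both, and higher in both in none, against 29.8% and 35.1% of all genes. Csf1, the growth factor of macrophages, was at 2.39 and 2.47 at 50K and at 0.91 and 0.57 at 250K, a mean difference of -1.69 (SE 0.15), with another probe set of opposite sign and a difference of -0.98 over the mean of its probe sets. The cytokine gene Lif was at 0.70 and 0.91 against -0.60 and -0.19, and Tnfaip3, which restrains NF-kappaB, was lower by 0.73 and 1.0. Of 10 macrophage markers listed, 5 were tested, 1 was lower in both (Cd14, by 0.22 and 0.15) and 1 higher in both (Cd68, by 0.19 and 0.95).

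In the TGF-beta list 8 of 20 were lower in both and 4 higher. Id2, a target of BMP signals, was lower by 3.47 in A and higher by 0.31 in B. Lower were Pmepa1, a feedback inhibitor, at 1.84 and 0.57 at 50K and at 0.82 and -1.42 at 250K, where the groups overlapped, and Skil and Smad7, by 1.16 and 0.62 in A and by 0.58 and 0.57 in B. Basement membrane and integrin genes were lower in 10 of 19 and higher in 3. Their leading members were Cd44, a receptor of hyaluronan (0.76 and 0.29 against -0.08 and -0.90), the integrin gene Itgb6 (lower by 0.87 and 0.79) and the collagen IV gene Col4a1 (by 0.56 and 1.56). The laminin gene Lamb2 was higher by 0.54 and 0.58.

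**Figure D3:**
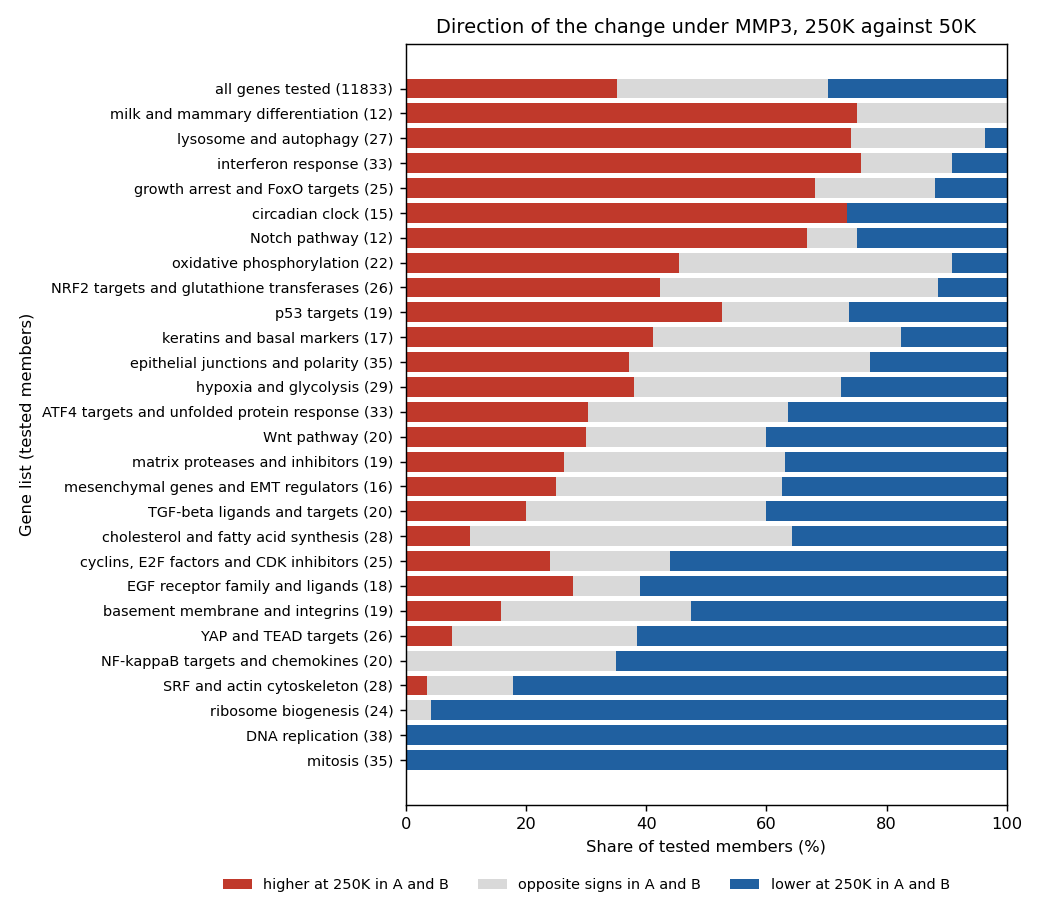
Share of the tested members of each list (horizontal, percent; number tested in brackets) that were higher at 250K in both experiments (red), lower in both (blue) or of opposite signs (grey), with all 11833 genes in the top bar at 35.1% and 29.8%. The lists of mitosis and DNA replication are lower throughout (35 of 35 and 38 of 38), and those of milk, lysosome and interferon genes are mostly higher.

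On the higher side, growth arrest and FoxO targets were higher in both experiments in 17 of 25 members, where 35.1% of all genes were, and 14 had an unadjusted p under 0.05, against 11.7%. Pik3ip1, an inhibitor of PI3 kinase, was at -0.11 and 0.80 at 50K and at 1.81 and 2.53 at 250K. Ypel2 was at -0.13 and 0.70 against 1.38 and 2.11. Txnip, which limits glucose uptake, was at 0.07 and -0.02 against 1.29 and 2.44. These 3 genes were the members at least 2-fold higher in both, against 0.761% of all genes. Their groups did not overlap, and the mean differences were 1.82 (SE 0.10), 1.46 (SE 0.08) and 1.84 (SE 0.39). With limma the adjusted p was 0.184, 0.184 and 0.192. For Txnip the mean of its probe sets differed by 0.96.

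The FoxO gene Foxo3 was higher by 0.85 and 0.59, and the antiproliferative gene Btg2 by 0.64 and 0.94. Against this direction, Klf6 was at least 2-fold lower in both (by 1.08 and 1.69), and Gadd45b and Klf4 were lower by 0.45 and 0.72 in A and by 0.76 and 0.18 in B. Gas1, a growth arrest gene outside the list and chosen after its values were seen, was at -2.39 and -1.70 at 50K and at -0.85 and -0.09 at 250K.

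Among p53 targets 10 of 19 were higher in both and 5 lower, against 35.1% and 29.8% of all genes. Trp53inp1 was higher by 1.28 and 1.30 and the sestrin gene Sesn1 by 0.93 and 1.21, while Plk2 was lower by 1.28 and 1.0 and Pmaip1, for the death factor NOXA, by 0.71 and 0.91. The list thus held members at least 2-fold different in each direction.

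Lysosome and autophagy genes were higher in both experiments in 20 of 27 members and lower in 1, against 35.1% and 29.8% of all genes, with 13 at an unadjusted p under 0.05, against 11.7%. The differences were small and even, with medians of 0.35 in A and 0.42 in B and no member at 2-fold in both. Scarb2, for a lysosomal membrane protein, was at -0.28 and 0.20 at 50K and at 0.59 and 1.17 at 250K. The cargo receptor Sqstm1 was at -0.58 and 0.17 against 0.30 and 0.93, with 0.53 over the mean of its probe sets, and Gaa, for acid alpha-glucosidase, was higher by 0.91 and 0.64.

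Of the clock genes, 11 of 15 were higher in both and 4 lower in both, against 35.1% and 29.8% of all genes. The list medians were only 0.02 in A and 0.07 in B. The PAR bZIP genes Dbp and Tef, which are outputs of the clock, were at least 2-fold higher. Dbp was at -1.39 and -0.63 at 50K and at 0.48 and 1.13 at 250K, and Tef at -1.13 and -0.56 against -0.08 and 0.50. Over the mean of its probe sets, 1 of which had the opposite sign, Tef differed by 0.51. Per2 was higher by 0.55 and 0.59.

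Lower were Bhlhe40, a repressor of the circuit, at 1.52 and 0.66 against 0.27 and -0.83, and Nfil3, which opposes the PAR bZIP factors, by 1.28 and 0.83. The core genes Arntl and Nr1d1 differed by no more than 0.02 in either experiment. Each dish was harvested once, and no time of day is given in the sources used here.

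Of the milk and mammary differentiation list 9 of 12 tested members were higher in both and none lower, against 35.1% and 29.8% of all genes. The list medians were 0.37 and 0.34. Xdh, a protein of the milk fat globule, was at -0.92 and -0.17 at 50K and at 0.22 and 1.35 at 250K. Tcn2, a carrier of vitamin B12, was at 0.58 and 1.99 against 2.41 and 2.95, and Stat5a, the factor through which prolactin acts, at 0.02 and 0.70 against 1.12 and 1.10. After the 4 arrays were normalized to 1 distribution again, 5 of the 12 were higher in both. The casein genes Csn1s1, Csn2 and Csn3 and the whey gene Lalba were not among the genes tested.

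Interferon response genes were higher in both in 25 of 33 members and lower in 3, against 35.1% and 29.8% of all genes. The median was 0.80 in A and 0.30 in B, and 12 had an unadjusted p under 0.05 in the higher direction, against 11.7% of all genes. Ifit1 was at 2.83 and 4.53 at 50K and at 4.21 and 5.15 at 250K, a mean difference of 1.0 (SE 0.25, adjusted p = 0.205 with limma). The groups overlapped for Ifit1, since the 50K array of B was above the 250K array of A. Only 3 of the 33 had both 250K arrays above both 50K arrays, where 24.0% of all genes had.

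Among the others, the GTPase gene Igtp was higher by 0.87 and 0.75 and Irf9, which carries the interferon signal to DNA, by 0.99 and 0.67. Cmpk2 and Rsad2 went in opposite directions, by 1.85 and 1.37 in A and by -2.25 and -1.51 in B. This list depends on scaling: normalized to 1 distribution again, 9 of 33 were higher in both.

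Keratins followed no single rule. Besides Krt15, Krt79 was at -2.88 and 0.44 at 50K and at -1.91 and 1.28 at 250K, where the groups overlapped. The basal regulator Trp63 was at -0.97 and -0.38 against -0.11 and 0.72. Krt14 was higher by 0.10 in A and 1.30 in B (mean 0.70, SE 0.38, adjusted p = 0.408 with limma, or 0.35 over the mean of its probe sets), and the luminal gene Krt18 differed by -0.04 and 0.01. The stress keratin genes Krt6b and Krt16 were lower by 3.95 and 1.38 in A, and in B higher by 0.26 and 1.17. Of the 17 tested members 7 were higher in both and 3 lower.

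In the Notch list 8 of 12 were higher in both and 3 lower, against 35.1% and 29.8% of all genes. The list medians were only 0.08 in A and 0.09 in B. The receptor Notch3 was at -0.08 and 1.05 at 50K and at 1.43 and 2.26 at 250K, a mean difference of 1.36 (SE 0.12). Its target Nrarp was higher by 0.81 and 0.68 (0.43 over the mean of its probe sets) and the ligand gene Dll1 by 0.58 and 1.11, whereas the ligand gene Jag1 was lower by 1.81 and 0.54. Wnt genes were higher in 6 and lower in 8 of 20, with the ligands Wnt4 (higher by 0.70 and 1.05) and Wnt5a (by 1.12 and 0.57) and the secreted protein Dkk3 (by 0.54 and 0.84) leading.

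Epithelial junction and polarity genes did not move together: 13 of 35 were higher in both, 8 lower and 14 of opposite signs. The largest were the claudin gene Cldn8, at -0.09 and 0.26 at 50K and at 0.85 and 2.93 at 250K, and the epithelial transcription factors Grhl1 (higher by 0.87 and 1.06) and Ehf (by 0.62 and 1.44). Cdh1, for E-cadherin, a protein that MMP-3 cuts, was at 0.37 and 0.35 at 50K and at 0.38 and 0.27 at 250K, a mean difference of -0.03 (SE 0.08, adjusted p = 0.926 with limma). Cldn4 went from 1.91 to 0.84 in A and from 1.62 to 3.54 in B. Epcam differed by -0.07 and -0.23, and Rac1, a GTPase of cell spreading, by -0.16 and -0.01.

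Of the mesenchymal list 6 of 16 tested genes were lower in both and 4 higher. Vim, for vimentin, was at 0.83 and 0.16 at 50K and at 0.39 and -0.50 at 250K, where the groups overlapped (mean -0.54, SE 0.10). The largest difference in B was that of Cdh2, for N-cadherin, lower by 0.71 in A and 2.95 in B. Fn1, for fibronectin, was lower by 0.78 and 2.08, Tnc, for tenascin C, by 0.78 and 1.93, and Lox, which crosslinks collagen, by 0.81 and 0.84. The repressor gene Zeb2 was higher by 0.20 and 0.32, and Snai1 was not tested.

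Metabolic lists were mixed. Of 33 genes of the ATF4 and unfolded protein responses 12 were lower in both and 10 higher, and those lower included enzymes of serine and one-carbon synthesis: Phgdh by 0.70 and 0.93 (-0.51 over the mean of its probe sets), and Mthfd2 by 0.60 and 1.32. Nupr1 was higher by 0.62 and 0.65. Cholesterol and fatty acid genes had opposite signs in 15 of 28 cases, with Hmgcs1 at 0.53 in A and -1.59 in B. Those that kept their sign included Hsd17b7 (lower by 0.50 and 0.66), Idi1 (by 0.35 and 0.71) and Acss2, which makes acetyl-CoA from acetate (higher by 1.03 and 0.93).

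Hypoxia and glycolysis genes were higher in both in 11 of 29 and lower in 8, led by Aldoc (at -0.20 and 0.59 at 50K and at 1.14 and 1.73 at 250K, with 0.67 over the mean of its probe sets), Ddit4 (higher by 1.66 and 0.72) and Bnip3 (by 0.57 and 1.05). Of 22 genes of oxidative phosphorylation 10 were higher in both and 2 lower, most by little: Cox4i1 was higher by 0.16 and 0.16 and Cycs lower by 0.27 and 0.37. The exception was Ppargc1a, the coactivator that drives mitochondrial genes, at -2.62 and -0.31 against 0.35 and 1.35. NRF2 targets and glutathione transferases were higher in 11 of 26 and lower in 3, with Mgst1 higher by 0.65 and 1.06, Txnrd1 lower by 0.34 and 1.35 and Sod2 higher by 0.61 and 0.25, the last with another probe set of opposite sign.

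Markers of other cell types were read for whether they moved with density. Among fibroblast markers 2 of 10 were tested: Pdgfra, a receptor of PDGF, was at -0.99 and 0.24 at 50K and at 0.32 and 1.5 at 250K, with 0.66 over the mean of its probe sets, while Pdpn differed by no more than 0.02 in either experiment. The endothelial list had 1 of 8 tested (Cldn5, which differed by no more than 0.01), the lymphocyte list 1 of 8 and the adipocyte list 2 of 7, and none of these 4 had the same sign in both. The remaining markers had no probe set or varied less than the filter required. Whether other cells contributed to these values was not tested. In RNA from a whole dish, fewer cells of a type and less RNA per cell cannot be told apart.

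The 100K array of A was not used in the comparison. Of the 90 genes at least 2-fold higher in both, 61 were between their 50K and 250K values at 100K in A (67.8%), and of the 86 lower ones 58 (67.4%), and of the 7678 genes with the same sign in both 40.8%. The first 2 groups were chosen for a wide gap between 50K and 250K, so their shares cannot be set against the last. The medians of the 90 were -0.36 at 50K, -0.17 at 100K and 0.94 at 250K, so most of the difference fell between 100K and 250K. Ccn2 showed this on the MMP3 arrays of A at 3.22, 2.64 and 1.06, Serpinb2 at 1.0, 0.12 and -2.07, and Gins3 at 0.15, 0.10 and -1.39. In B the array at 100K was at -7.14 for Ccn2 and -5.69 for Serpinb2, beyond both neighbours, and fewer genes lay between (30.0% and 32.6%).

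**Figure D4:**
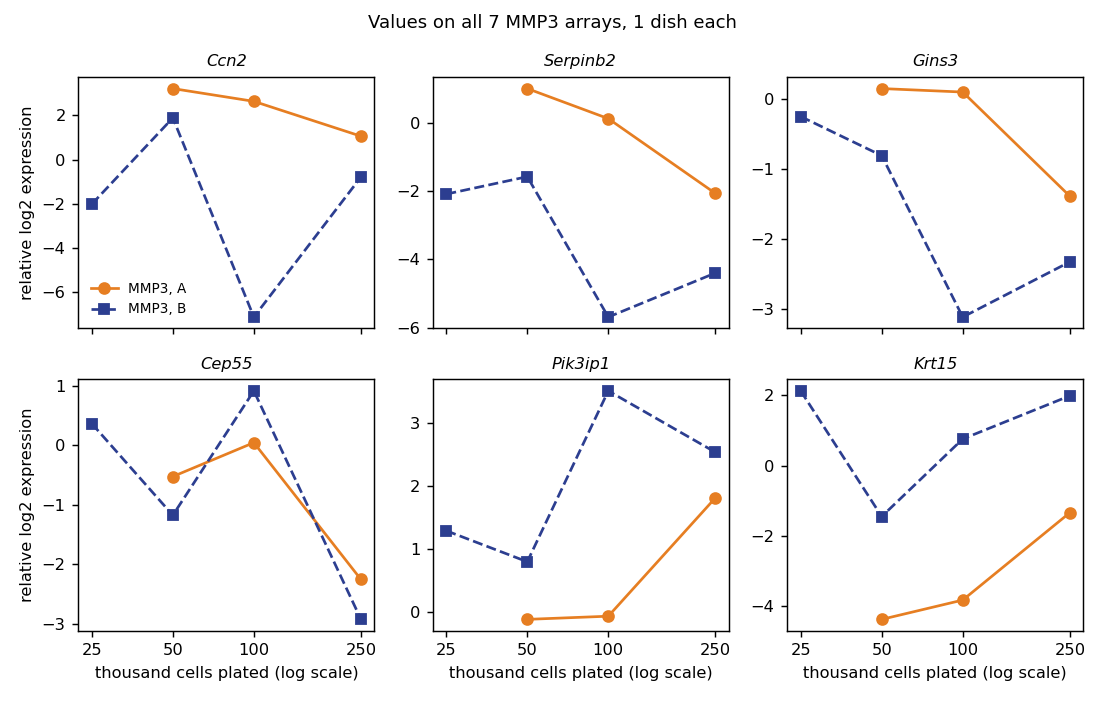
Relative log2 expression (vertical) of 6 genes on all 7 MMP3 arrays against the number of cells plated (horizontal, K as in the labels, log scale), circles for A and squares for B. In A the 100K value lies near that at 50K for Gins3 (0.10 against 0.15) and Pik3ip1 (-0.06 against -0.11), while in B the 25K and 100K arrays leave the order for several genes, as for Ccn2 (-7.14 at 100K).

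Dishes without MMP-3 were compared in the same way, which asks whether the difference with density was also seen without the protease. In A the control differences correlated with the MMP3 differences across genes at r = 0.501. The control pair of B, whose labels are open to doubt (Ifit1 was at 3.71 and 4.26 on it, as on MMP3 arrays), differed little, with an SD of 0.266 against 0.663 in the control pair of A, and its differences correlated with those of MMP3 in B at r = 0.191. Of the 90 genes higher in both under MMP3, 80 were higher at 250K in the control of A (88.9%) and 76 in that of B (84.4%). Of the 86 lower ones, 75 (87.2%) and 70 (81.4%) were lower. Over all genes with the same sign in both under MMP3 these shares were 72.8% and 59.1%.

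The difference between agents was tested on the 8 arrays at 50K and 250K with experiment as a block. The limma fit called no gene at an adjusted p under 0.05 (0.0%), while 233 genes were under 0.05 before adjustment (1.97%), 119 with the MMP3 difference below the control difference (1.01%) and 114 above it (0.963%). Mitosis genes were 17 of the 119. In 34 of the 35 mitosis genes the MMP3 difference was the lower of the 2, with a median of -0.82 log2 units. In the DNA replication genes this held for 37 of 38, with a median of -0.63. Over all 11833 genes tested it held for 5158, with a median of 0.03.

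In the controls of A the 35 mitosis genes had a median of 0.09, with 15 lower and 20 higher at 250K, against -0.53 and 35 lower under MMP3. In those of B it was 0.01, also with 15 lower, against -1.06. The control pair of B differed little over all genes (SD 0.266 against 0.663 in A), so its median of 0.01 carries little weight. The 38 replication genes had a median of -0.73 in the controls of A, with all 38 lower, against -0.65 under MMP3. In those of B it was -0.02, with 21 lower and 17 higher, against -1.26. In the limma test of the difference, 4 of 38 replication genes had an unadjusted p under 0.05 below 0, against 1.01% of all genes. With 1 array left out, their median difference ran from -0.26 (without control 250K of B) to -0.93 (without control 250K or MMP3 250K of A). That of the mitosis genes ran from -0.60 (without MMP3 50K of B) to -1.05 (without MMP3 50K of A). The counts under an unadjusted p of 0.05 changed strongly with the array left out, and so did the share of all genes. With the arrays normalized to 1 distribution again, the mitosis count of 17 fell to 6, against 0.668% of all genes. The mitosis median was then -0.41.

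Ttk was at 0.36 and 0.06 in the control differences against -0.98 and -1.22 under MMP3, and the difference between agents was -1.30 (adjusted p = 1 with limma, under 0.05 before adjustment). Cep55 was at 0.75 and -0.13 against -1.72 and -1.75, with a difference of -2.05, and Wfdc3 at 0.11 and 0.07 against 1.97 and 2.07 (1.93), each with limma at adjusted p = 1. Some others differed between densities in the control of A by as much or more than under MMP3: Dbp by 3.70, Pik3ip1 by 3.72, Serpinb2 by -4.98, Ccn1 by -5.28 and Ccn2 by -3.81, against 1.87, 1.91, -3.07, -1.28 and -2.16 under MMP3 in A. In the control of B these 5 differed by 1.20, 0.07, -0.99, -0.34 and -0.62, against 1.75, 1.72, -2.82, -2.64 and -2.69 under MMP3. Ribosome biogenesis genes had a median of -1.07 in the control of A against -0.41 under MMP3, and growth arrest genes 0.89 against 0.49.

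**Figure D5:**
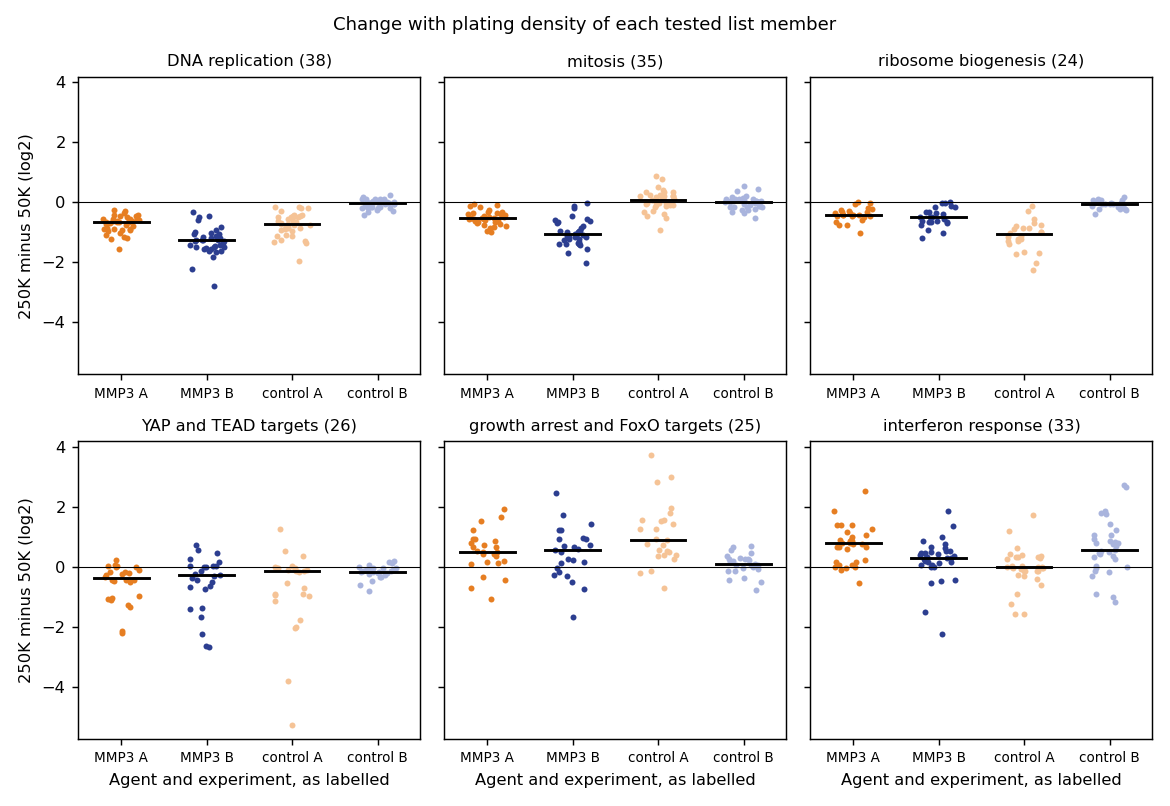
Difference between 250K and 50K (vertical, log2) of each tested member of 6 lists, 1 point a gene, for MMP3 and control dishes of A and B, with a bar at the median. Mitosis genes lie below 0 under MMP3 (medians -0.53 and -1.06) and around 0 in the controls (0.09 and 0.01). Replication genes also lie below 0 in the control of A (-0.73). The control pair of B differed little over all genes (SD 0.266 against 0.663 in A).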

How the data were processed

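RNA from 14 dishes was measured on Affymetrix mouse expression arrays. The deposited log2 values came from RMA, a tool the submitters' processing notes name without a version, and their log base is taken from that method. In the values themselves each probe set was centred on its median over the 14 arrays (within 5e-07), so levels, signal over background and the scanner's own values were not used here. Of 45037 probe sets that were not controls, 34945 had 1 gene symbol in the platform annotation, 932 had several and 9160 none; 34741 symbols were updated through the Entrez number and 204 kept.

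For each of 18193 genes the probe set that varied most (SD) on the 10 arrays outside the comparison was used. Of these genes, 11833 with an SD of at least 0.0447, the 40th percentile, were tested. The 10 arrays include MMP3 100K of B, with its SD of 1.3 over the tested genes, and its weight in this choice was not tested. Of the 113 named genes 69 had several probe sets past the filter, and the difference over their mean is not printed for all. The pair of densities was compared within each experiment, and limma 3.58.1 in R 4.3.3 was fitted with experiment as a block and Benjamini-Hochberg adjustment over all genes tested, two-sided. The letters A and B mark separate experiments in the labels. Deviations of the 2 dishes of an experiment from their group means correlated across genes with r = 0.466. The scripts were tested on simulated data.

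Named genes were the 12 with the largest smaller-of-both difference in each direction, up to 3 from each list by the same measure and a further set of 15. Other members named in the text were chosen after their values were seen. The members and the gene lists were chosen with earlier results of these data known. Alternatives covered probe set choice, filter, normalization, block, arrays in the fit, fold rule and leaving out each array. The number of arrays limits the precision.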

Additional observations from a re-analysis of the deposited data

Results flagged for a closer look

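In 4 of the named genes the difference between 250K and 50K had 1 sign in both MMP3 experiments and the other sign, or none, in both control pairs. The difference between agents was tested with limma on 8 arrays and no gene passed after adjustment. For Ttk it was -1.30 (adjusted p = 1 with limma), with -0.98 and -1.22 under MMP3 and 0.36 and 0.06 in the controls. For Epcam it was -0.20, for Mmp3 0.03 and for Rac1 -0.14, each with limma at adjusted p = 1. Each difference of these last 3 genes was at most 0.23 in size.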

How the results depend on the processing

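The count of genes past an adjusted p under 0.05 was 0 in every fit of the density comparison except that on all 14 arrays with the replicate block, which called 1 gene, Cavin4 (1.63, SE 0.11, adjusted p = 0.0329 with limma). Without the replicate block limma called 0, with 1445 at an unadjusted p under 0.05. Leaving out 1 array gave 0 to 0 calls, with 159 to 523 unadjusted, and 0 to 0 for the difference between agents, with 124 to 1308. With 1 array left out, the fits of the density comparison pooled the spread of the rest of the 14 arrays. Those of the difference between agents pooled the spread of the rest of its 8 arrays. In both, a lone array is assumed to vary like the others. The share of genes with the same sign in A and B was 65.8% with the SD taken over 14 arrays, 66.8% over the mean of probe sets, 72.0% with a 70th percentile filter, 60.8% after quantile normalization and 47.5% with no filter; r stayed at 0.600 with no filter and was 0.459 after quantile normalization. Genes at least 2-fold in both were 115 over the mean of probe sets, and other fold rules gave 831 (1.5-fold) and 9 (4-fold).

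Of 113 named genes, 12 changed sign in some setting, and the cause was not tested. In a slope over the 7 MMP3 arrays with the replicate block these were Rtl3 (-0.46), Ccn1 (0.38), Wnt5a (-0.23), Epcam (0.22), Mmp3 (-0.04), Cdh1 (0.24), Vim (0.02) and Rac1 (0.08), and after quantile normalization Hmgcs1 (0.05). With 1 array left out, the difference ran from -0.81 to 2.63 in Krt79, from -0.01 to 1.70 in Wnt5a, from -0.22 to 1.61 in Krt14, from -0.35 to 0.05 in Epcam, from -0.14 to 0.07 in Cdh1, from -0.27 to 0.10 in Rac1, from -0.05 to 0.02 in Krt18 and from -1.34 to 0.27 in Hmgcs1. The count of 17 mitosis genes in the difference between agents was 6 with no replicate block, 3 on 14 arrays and 3 of 24 with the 70th percentile filter. The shares of all genes in these 3 fits were 0.482%, 0.541% and 0.468%. Counts of lists in A alone, B alone and after quantile normalization were added after the data were seen.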
